A study of Mus musculus with 22 samples.

Results

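A group of 10 genes of the earliest peripheral B cell stage, Rag1, Rag2, Myb, Sox4, Spib, Vpreb3, Il7r, Cd93, Cd24a and Ly6d, were followed by symbol through 3 tables of normalized RNA-seq counts from mouse splenic immature B cells. They are 10 of 21880 genes in the table of experiment 1, 10 of 26097 in that of experiment 2 and 10 of 25676 in that of the cultures, and each symbol had 1 row per table. The study asked how immature B cells, sorted as B220+CD93+, differ when gamma delta T cells are absent or present, and it holds 22 libraries in 7 groups. Experiment 1 had 3 libraries of toxin-treated Tcrd-GDL mice, called depleted here, and 3 of untreated Tcrd-GDL mice. Experiment 2 had 2 libraries of depleted Tcrd-GDL mice, 3 of Tcrd-H2BeGFP mice given the same toxin, and 5 of untreated Tcrd-GDL mice. Toxin-treated mice received diphtheria toxin intraperitoneally at 15 ng per gram, in 2 injections with 48 h between them, and were analysed on day 8 after the first. The culture experiment had 3 libraries of immature B cells kept with gamma delta T cells and 3 of the same cells kept alone, all from untreated Tcrd-H2BeGFP mice.

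As background, Tcrd-GDL mice carry a reporter with the diphtheria toxin receptor at the Tcrd locus, which is active in gamma delta T cells, and Tcrd-H2BeGFP mice carry a green fluorescent reporter there. Whether the H2BeGFP animals carry a toxin receptor, the ages and sexes of the animals, whether libraries came from separate animals, and whether cultured B cells were sorted again before lysis are not stated in the labels. The p-values therefore measure the spread between these libraries, which may be technical in part. Depleted and untreated Tcrd-GDL mice differ in both toxin and gamma delta T cells, depleted and toxin-treated H2BeGFP mice in both strain and, by the study's design, gamma delta T cells, and toxin-treated H2BeGFP and untreated Tcrd-GDL mice in both strain and toxin, and these differences cannot be told apart within a comparison.

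Immature B cells leave the bone marrow soon after their antigen receptor is first expressed and reach the spleen as transitional cells. The RAG1 and RAG2 proteins form the recombinase that cuts immunoglobulin gene segments, and their transcripts decline as B cells mature. Myb and Sox4 are transcription factors of early lymphoid progenitors, Spib is an ETS family factor related to PU.1, and Vpreb3 is a small protein of the B lineage related to the surrogate light chain. Il7r encodes the alpha chain of the interleukin-7 receptor, which B cell precursors and most T cells carry. CD93, CD24 and Ly6d are surface proteins, CD93 and CD24 being high on newly formed B cells, and Ly6d marking lymphoid progenitors committed to the B lineage. CD93 was also a gate of the sort.

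Rag1 (ENSMUSG00000061311) and Rag2 (ENSMUSG00000032864) lie tail to tail on mouse chromosome 2 (GRCm38), Rag1 at chr2:101638282-101649501 on the minus strand and Rag2 at chr2:101624718-101632529 on the plus strand, with 5723 bases between their ends in RefSeq. Myb lies at chr10:21124935-21160984 and Sox4 at chr13:28948919-28953713, both on the minus strand. RefSeq promoters (GRCm38.p6), from 250 bases before to 50 after the start of the gene, were matched for 7 of the 10 genes. Those of the recombinase pair and of the transcription factor genes Myb and Sox4 are shown. No promoter was matched for Cd93, Cd24a and Ly6d. Capitals mark E-boxes (CANNTG, which reads the same on both strands), the core bound by E2A and related factors of early B cells.
Rag1, chr2:101649483-101649782, minus strand: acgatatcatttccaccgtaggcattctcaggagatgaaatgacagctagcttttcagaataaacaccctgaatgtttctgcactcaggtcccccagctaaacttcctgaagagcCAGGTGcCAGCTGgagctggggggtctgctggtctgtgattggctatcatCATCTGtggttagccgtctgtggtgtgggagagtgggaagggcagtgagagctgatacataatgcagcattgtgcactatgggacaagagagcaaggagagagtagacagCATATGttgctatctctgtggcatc
Rag2, chr2:101624462-101624761, plus strand: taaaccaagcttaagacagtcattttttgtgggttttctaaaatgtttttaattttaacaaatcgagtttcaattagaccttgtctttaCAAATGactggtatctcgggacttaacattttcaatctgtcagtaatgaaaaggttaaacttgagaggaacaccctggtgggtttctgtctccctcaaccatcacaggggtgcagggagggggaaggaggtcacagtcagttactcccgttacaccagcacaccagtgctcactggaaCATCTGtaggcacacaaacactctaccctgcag
Myb, chr10:21160935-21161234, minus strand: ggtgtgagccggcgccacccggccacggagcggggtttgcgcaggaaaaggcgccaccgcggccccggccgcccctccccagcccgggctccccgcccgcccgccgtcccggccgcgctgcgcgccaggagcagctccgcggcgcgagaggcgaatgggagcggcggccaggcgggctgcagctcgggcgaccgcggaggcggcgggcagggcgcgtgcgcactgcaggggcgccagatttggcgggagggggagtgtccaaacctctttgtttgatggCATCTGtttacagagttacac
Sox4, chr13:28953650-28953949, minus strand: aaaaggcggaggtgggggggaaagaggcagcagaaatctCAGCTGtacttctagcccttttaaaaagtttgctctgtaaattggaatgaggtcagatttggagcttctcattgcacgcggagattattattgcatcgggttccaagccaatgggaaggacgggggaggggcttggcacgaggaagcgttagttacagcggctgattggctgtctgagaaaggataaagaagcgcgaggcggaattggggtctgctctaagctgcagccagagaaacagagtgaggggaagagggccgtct
The windows held 4, 2, 1 and 1 E-boxes in the order shown, and at least 1 was in all 7 matched promoters, against 72.3% of 32851 RefSeq promoters of the same length. The site GAGGAA, read on both strands and typical of PU.1 and Spi-B, was in the Rag2 and Sox4 windows among the 7, and in 28.3% of all promoters. The forkhead site GTAAACA was in the Myb window alone among the 7, and in 3.6% of all promoters. CCAAT was in the Rag1, Sox4, Il7r and Spib windows, and in 37.4% of all promoters. The Myb window had 40 CpG dinucleotides and 75% GC, that of Sox4 12 and 52%, and those of Rag1 and Rag2 3 each, with 50% and 43% GC. The median of all promoters was 7 CpG and 52.7% GC. These matches describe letters in the windows, not bound sites.

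Depth lay between 9794413 and 20343954 reads per library in experiment 1, between 22022330 and 36840455 in experiment 2, and between 17505909 and 28729574 in culture. Of 7 B cell markers all had reads in every group. Their summed normalized count was 71627 to 83870 in depleted and 77872 to 81009 in untreated libraries of experiment 1, and 91281 to 97290 with gamma delta T cells and 91718 to 111420 alone in culture. In experiment 2 it was 182356 to 211769 in depleted, 237236 to 244387 in toxin-treated H2BeGFP and 204917 to 241694 in untreated libraries, so that the depleted libraries lay below the toxin-treated ones. Ptprc, which encodes the B220 form used in the sort, was the 1 of the 7 that fell in depleted against toxin-treated H2BeGFP cells (log2 -0.50, adjusted p = 0.0254), Ighm having a log2 change of -0.52 (adjusted p = 0.0811) and Pax5 of -0.32 (adjusted p = 0.127). The part of these levels in the results was not tested. Of 15 T cell markers 14 were in the tables, and all 14 had reads in every group. Their summed normalized count was 217 to 388 in depleted and 349 to 420 in untreated libraries of experiment 1. In experiment 2 it was 862 to 1111 in depleted, 1648 to 2655 in toxin-treated H2BeGFP and 686 to 2119 in untreated libraries, where untreated replicate 8 held the 2119. Of 8 monocyte and macrophage markers 7 were in the table, with a sum of 817 to 860 in depleted, 1128 to 1709 in toxin-treated H2BeGFP and 664 to 1570 in untreated libraries, and 8 dendritic cell markers summed to 764 to 1190, 587 to 682 and 464 to 977 in the same order of groups. In that order, 8 NK and innate lymphoid cell markers summed to 98.7 to 213, 322 to 483 and 147 to 502. All 8 had a negative log2 change in depleted against toxin-treated H2BeGFP cells (median -2.06), and 1 passed. The sum of 7 erythroid markers was 4653 and 580 in depleted replicates 4 and 5, 536 to 1807 in toxin-treated H2BeGFP and 1067 to 2689 in untreated libraries. Their part in the results was not tested. Depleted replicate 1 of experiment 1, the library with the fewest reads, stood apart from replicates 2 and 3 of its group in several of the 10 genes. It also differed in sex-linked transcripts. The Y-linked gene Ddx3y had 569, 40.0 and 1.68 normalized counts in depleted replicates 1, 2 and 3 and 0 in every untreated library of experiment 1. Xist, the transcript of the inactive X chromosome, had 3.06, 9866 and 9333 in the same depleted replicates and 9304 to 10639 in untreated libraries. In culture, replicate 3 of each group had the male pattern, with Ddx3y at 927 with gamma delta T cells and 817 alone, and Xist at 265 and 228. Replicates 1 and 2 had Xist at 13311 and 13685 with gamma delta T cells and at 16709 and 15257 alone. In experiment 2 Xist was at 18895 to 30333 in all 10 libraries. The part of these differences in the results was not tested beyond leaving the libraries out.

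Per kilobase of exon, the level of the 10 genes kept nearly the same order in all 7 groups. Ly6d was highest, then Cd24a, Spib, Vpreb3 and Cd93, and Rag2 was lowest. In depleted libraries of experiment 2, Ly6d averaged 13374 and Rag2 0.821 normalized counts per kilobase. Myb and Sox4 held places 6 and 7: Sox4 stood above Myb in both depleted groups and in the toxin-treated H2BeGFP group, and Myb above Sox4 in both untreated groups and both culture groups. Their ranges overlapped in depleted and untreated libraries of experiment 1 and in toxin-treated and untreated libraries of experiment 2. Rag1 and Il7r held places 8 and 9. Rag1 was below Il7r in both depleted groups, at 6.71 against 24.4 per kilobase in depleted libraries of experiment 2, and in both culture groups. It was above Il7r in toxin-treated H2BeGFP libraries, at 96.8 against 32.0, and in both untreated groups, where their ranges overlapped. Neighbouring genes also overlapped for Cd93 and Myb in both untreated groups, for Il7r and Rag1 in depleted libraries of experiment 1, and for Cd24a and Spib in cultures with gamma delta T cells.

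In experiment 2 the recombinase gene Rag1 differed among all 3 groups. It had 36.2 and 52.5 normalized counts in depleted libraries, 611, 726 and 581 in toxin-treated H2BeGFP libraries, and 210, 299, 94.8, 171 and 169 in untreated libraries. No library of any group reached the range of another: the 2 depleted libraries were lowest, the 5 untreated libraries lay between, and the 3 toxin-treated H2BeGFP libraries were highest. Rag1 fell in depleted cells against untreated cells, with a change of -1.99 ± 0.30 on the log2(value + 1) scale (SE, adjusted p = 0.0130, limma). Against toxin-treated H2BeGFP cells it fell (log2 -3.84 ± 0.33, adjusted p = 9.38e-06), and in toxin-treated H2BeGFP cells it rose against untreated cells with a log2 change of 1.84 ± 0.26 (adjusted p = 0.00187). The 3 comparisons share libraries and are not independent of each other. In bulk libraries, fewer cells that carry a transcript and less transcript per cell cannot be told apart.

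Rag2, the partner of Rag1 in the recombinase, was close to the limit of detection. It had 3.29 and 2.33 normalized counts in depleted libraries, which are 3 and 2 reads, then 31.5, 21.5 and 14.1 in toxin-treated H2BeGFP libraries and 9.95, 5.21, 8.73, 2.67 and 10.3 in untreated libraries. The toxin-treated H2BeGFP libraries were above all others, and the depleted libraries overlapped the untreated ones at their lower end. Its log2 change in depleted against toxin-treated H2BeGFP cells was -2.56 ± 0.68 (adjusted p = 0.0320). It did not pass for depleted against untreated cells (log2 -1.03, 95% interval -2.36 to 0.30, adjusted p = 0.633) or for toxin-treated H2BeGFP against untreated cells (1.53, 0.37 to 2.69, adjusted p = 0.0683). Rag2 passed the filter on low values, a mean of at least 10 normalized counts over the libraries fitted, only through the toxin-treated H2BeGFP group, so its comparisons with that group are a description.

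**Figure D1:**
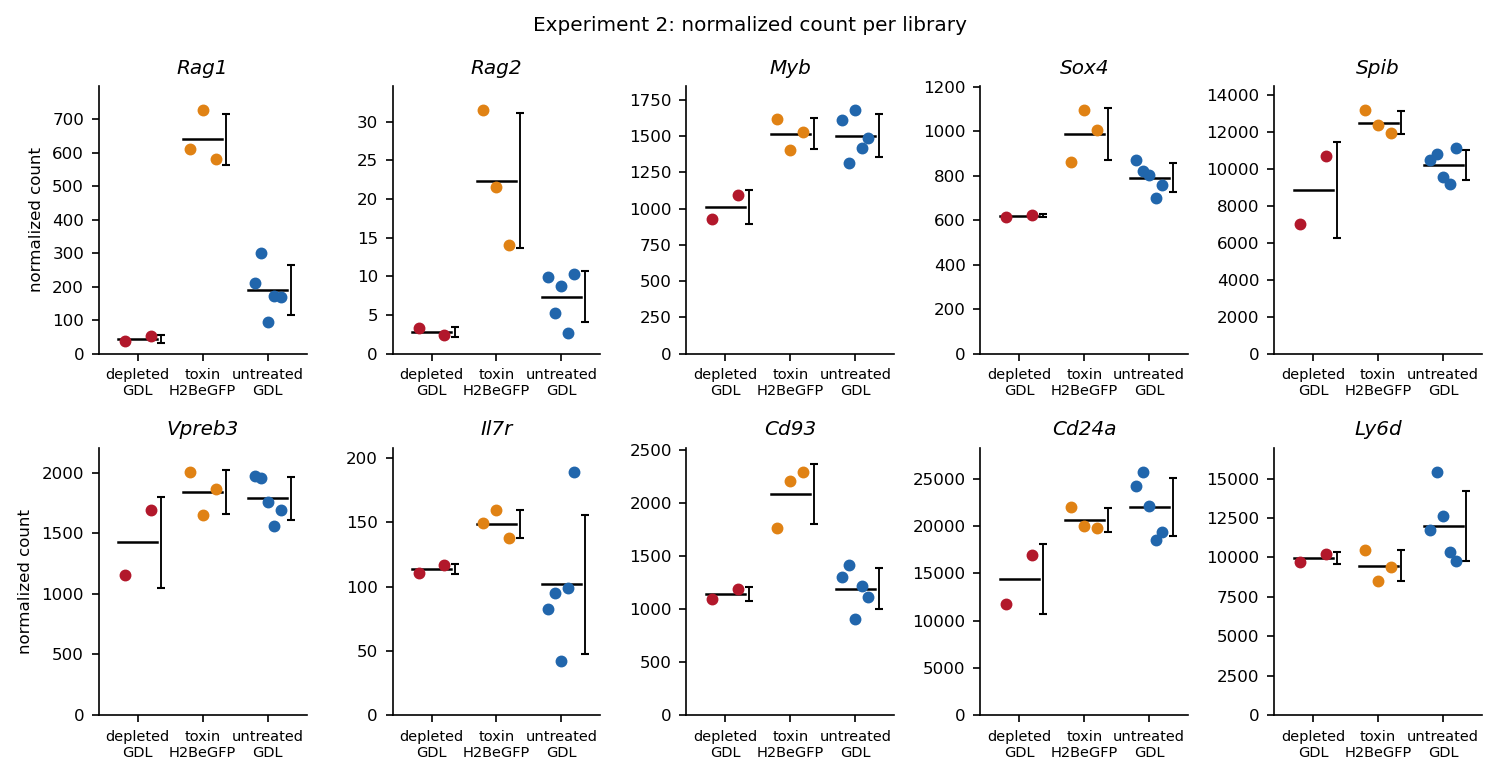
Normalized counts of the 10 genes in each library of experiment 2 (vertical axes, starting at 0), with depleted GDL, toxin-treated H2BeGFP and untreated GDL libraries from left to right. Points are libraries, horizontal lines are group means and brackets are 1 SD; the Rag1 panel shows 3 groups without overlap, from 36.2 and 52.5 in depleted libraries to at least 581 in toxin-treated H2BeGFP libraries.

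Among the transcription factor genes, Myb had 930 and 1095 normalized counts in depleted libraries, 1618, 1403 and 1526 in toxin-treated H2BeGFP libraries and 1614, 1315, 1678, 1417 and 1489 in untreated libraries. Both depleted libraries lay below all 8 others, while the other groups covered the same range. Myb fell in depleted cells against untreated cells (log2 -0.57 ± 0.11, adjusted p = 0.0403) and against toxin-treated H2BeGFP cells (log2 -0.58 ± 0.12, adjusted p = 0.0117), and had a log2 difference of 0.02 (95% interval -0.19 to 0.22) between toxin-treated H2BeGFP and untreated cells. Sox4 had 616 and 624 in depleted libraries, 860, 1094 and 1007 in toxin-treated H2BeGFP libraries and 871, 819, 802, 699 and 759 in untreated libraries. The depleted libraries were again the lowest, and the toxin-treated and untreated groups overlapped at 860 and 871. Sox4 fell in depleted against toxin-treated H2BeGFP cells (log2 -0.66 ± 0.13, adjusted p = 0.00739) and rose in toxin-treated H2BeGFP against untreated cells (log2 0.32 ± 0.10, adjusted p = 0.0438). For depleted against untreated cells its log2 change of -0.35 ± 0.12 did not pass (adjusted p = 0.280), although the groups did not overlap.

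Spib had 6988 and 10676 normalized counts in depleted libraries, 13149, 12347 and 11929 in toxin-treated H2BeGFP libraries, and between 9145 and 11095 in untreated libraries. Depleted replicate 5 lay within the untreated range and depleted replicate 4 below it. Spib fell in depleted against toxin-treated H2BeGFP cells (log2 -0.53 ± 0.15, adjusted p = 0.0350) and passed in neither other comparison. That call was lost in 8 of the alternative fits, listed with the processing below, and kept in 6, with a negative log2 change in each. Vpreb3 had 1159 and 1689 in depleted libraries, 1650 to 2006 in toxin-treated H2BeGFP libraries and 1558 to 1969 in untreated libraries, and passed in none of the 3 comparisons. Its log2 change was -0.39 ± 0.15 against toxin-treated H2BeGFP cells (adjusted p = 0.101) and -0.35 ± 0.13 against untreated cells (adjusted p = 0.373).

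Of the surface proteins, Cd93 separated the toxin-treated H2BeGFP group from both others. It had 1094 and 1187 normalized counts in depleted libraries, 1757, 2200 and 2290 in toxin-treated H2BeGFP libraries and 1299, 1409, 905, 1216 and 1114 in untreated libraries. The depleted libraries lay within the untreated range, and the toxin-treated H2BeGFP libraries lay above every other library. Cd93 fell in depleted against toxin-treated H2BeGFP cells (log2 -0.86 ± 0.16, adjusted p = 0.00597), rose in toxin-treated H2BeGFP against untreated cells (log2 0.81 ± 0.13, adjusted p = 0.00232) and had a log2 difference of -0.04 (95% interval -0.35 to 0.26) between depleted and untreated cells.

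Cd24a, which encodes the heat-stable antigen CD24, had 11771 and 16976 normalized counts in depleted libraries, 22054, 20034 and 19784 in toxin-treated H2BeGFP libraries and 24210.5, 25744, 22087, 18560 and 19321 in untreated libraries. Both depleted libraries were below all others. It fell against toxin-treated H2BeGFP cells (log2 -0.54 ± 0.16, adjusted p = 0.0473) and did not pass against untreated cells (log2 -0.63 ± 0.15, adjusted p = 0.102). The call against toxin-treated H2BeGFP cells was lost in 8 alternative fits and kept in 6, with a negative log2 change in each. Ly6d passed in none of the 3 comparisons: it had 9683 and 10217 in depleted libraries, 8518 to 10501 in toxin-treated H2BeGFP libraries and 9801 to 15431 in untreated libraries, and its log2 change was 0.08 (95% interval -0.25 to 0.41) against toxin-treated H2BeGFP cells.

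Il7r was highest and lowest in untreated libraries. It had 111 and 117 normalized counts in depleted libraries, 149, 160 and 138 in toxin-treated H2BeGFP libraries and 82.9, 94.8, 42.4, 98.8 and 189 in untreated libraries. Untreated replicate 8, highest of the 10 libraries for Il7r, had a summed T cell marker count of 2119, and untreated replicate 6, lowest for Il7r, had the lowest sum at 686. The order differed among toxin-treated H2BeGFP libraries, where replicate 2 had the highest Il7r count (160) and the lowest T cell sum (1648). Il7r passed in none of the 3 comparisons (adjusted p 0.850, 0.560 and 0.140). With the mean log2 level of the T cell markers as a term in the fit, its log2 change turned to 0.54 for depleted against toxin-treated H2BeGFP cells and to -0.22 for toxin-treated H2BeGFP against untreated cells, in place of -0.39 and 0.70.

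**Figure D2:**
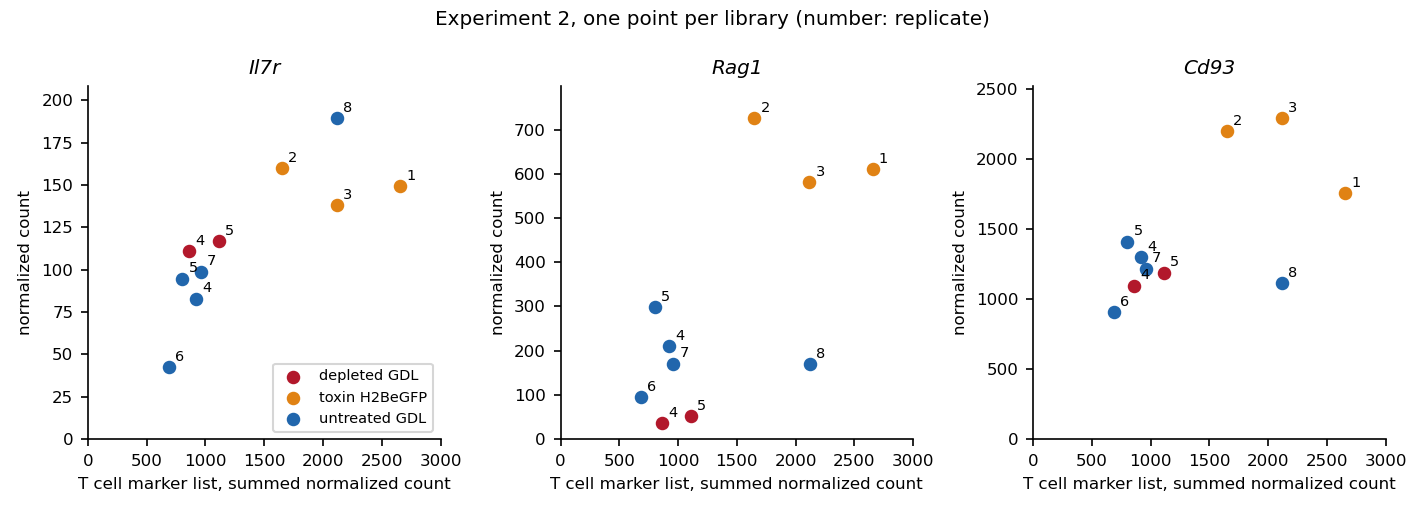
Normalized counts of Il7r, Rag1 and Cd93 (vertical axes) against the summed normalized count of 14 T cell markers (horizontal axis) in the 10 libraries of experiment 2, each labelled with its replicate number. Untreated replicate 8, with a T cell sum of 2119, had the highest Il7r count (189), while its Rag1 (169) and Cd93 (1114) counts lay among those of the other untreated libraries.

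Counted over the 10 genes, 2 fell in depleted against untreated cells, where 0.172% of 13364 tested genes fell and 0.127% rose, and the groups did not overlap for 4 (Rag1, Myb, Sox4 and Cd24a), lower in depleted, where 6.56% of tested genes were lower without overlap. In depleted against toxin-treated H2BeGFP cells 6 of the 9 genes other than Rag2 fell, where 4.49% of tested genes fell and 4.58% rose, and the groups did not overlap for 7 of these 9, lower in depleted, where 20.9% of tested genes were lower without overlap. Among these 6 are Spib and Cd24a, whose calls were lost in most alternative fits, as given above. In toxin-treated H2BeGFP against untreated cells 3 of the 9 rose, where 7.32% of tested genes rose and 8.34% fell, and 3 of the 9 (Rag1, Spib and Cd93) were higher without overlap, where 11.6% of tested genes were. Median log2 changes of the 9 genes were -0.35, -0.54 and 0.29 in these comparisons, and the medians of all tested genes were within 0.01 of 0. The T cell sum was higher in all 3 toxin-treated H2BeGFP libraries than in both depleted libraries, and its part in the results was not tested beyond a fit with the T cell level as a term. In that fit Rag1 (log2 -3.71, adjusted p = 0.000383) and Sox4 (-0.78, adjusted p = 0.0366) alone of the 10 passed for depleted against toxin-treated H2BeGFP cells. None passed for toxin-treated H2BeGFP against untreated cells, where Rag1 had a log2 change of 1.71 and Cd93 of 0.83 (adjusted p = 0.0905 each). Without the term these 2 changes were 1.84 and 0.81. Over the alternatives other than leaving out a library, this fit among them, 61 to 1754 of all tested genes were called in the first comparison. In the second 16 to 2655 were called, and the main fits called 1212 and 2093.

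The depleted group rests on 2 libraries, and leaving out either of them assumes that the remaining library varies like the other groups. Without depleted replicate 4, Rag1 was -1.73 against untreated cells (adjusted p = 0.257), no gene of the 10 passed there, and Rag1 alone passed against toxin-treated H2BeGFP cells (-3.58, adjusted p = 0.000316). Without depleted replicate 5, the log2 changes against untreated cells were -0.89 for Cd24a and -0.54 for Spib, in place of -0.63 and -0.24. Without untreated replicate 8, 4 of the 9 genes other than Rag2 rose in toxin-treated H2BeGFP against untreated cells, Il7r being added (0.96, adjusted p = 0.0130), and Ly6d fell (log2 -0.39, adjusted p = 0.0245). Over the fits that left out 1 library, 196 to 2996 of all tested genes were called in that comparison, against 2093 in the main fit.

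In experiment 1 none of the 9 tested genes passed, and 0% of 11701 tested genes did (limma, with 1033 genes at an unadjusted p under 0.05, and with 0 called by edgeR and 31 by DESeq2, none of the 10 among them). Rag1 had 42.8, 13.7 and 8.42 normalized counts in depleted replicates 1, 2 and 3, against 38.8, 32.7 and 53.4 in untreated libraries. Replicate 1 of the depleted group fell inside the untreated range and the others below it, and the log2 change was -1.20 ± 0.51 (adjusted p = 0.555). These values stand on 10 to 65 reads each. Rag2 had 1 read in the 3 depleted libraries and 4 in the 3 untreated libraries and was not tested.

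**Figure D3:**
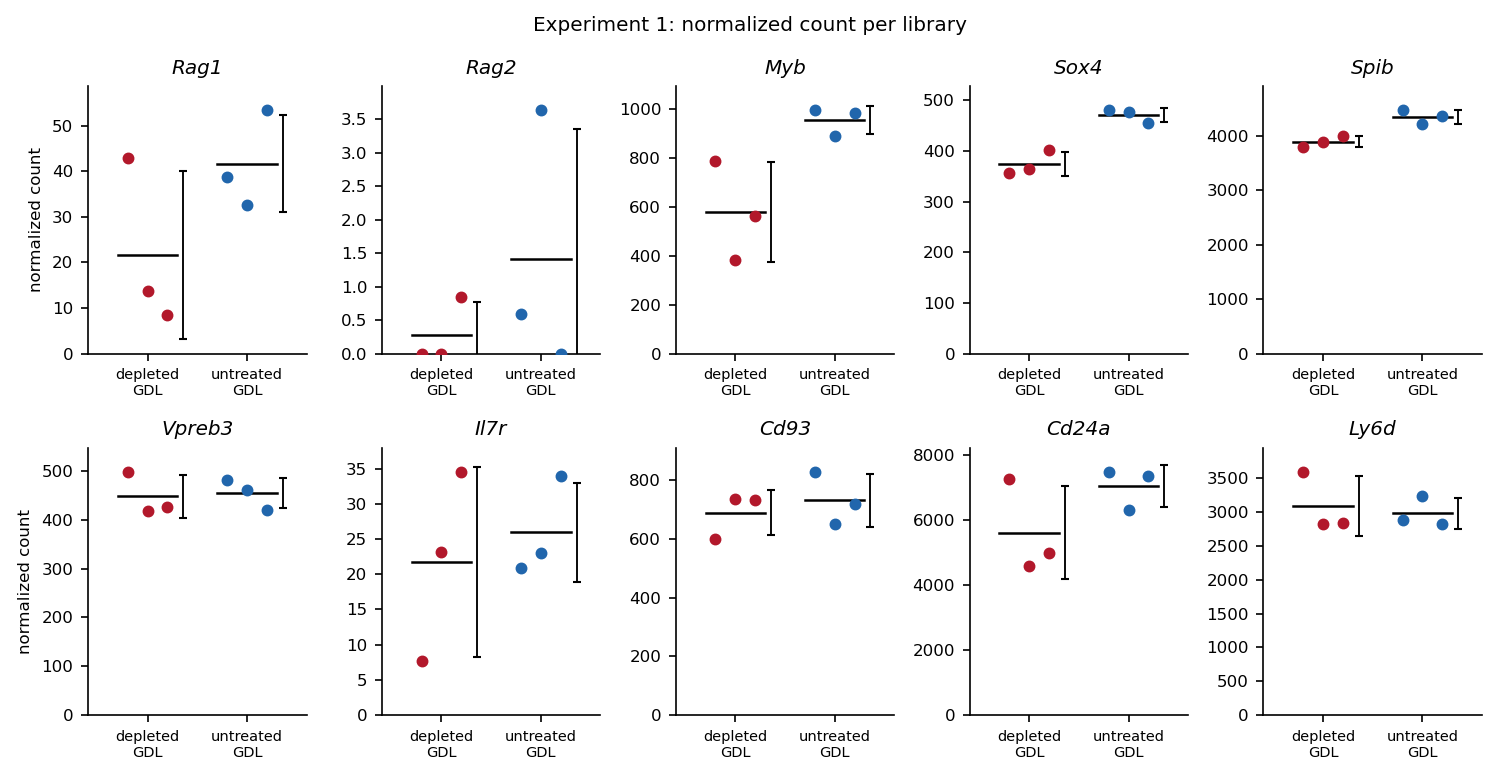
Normalized counts of the 10 genes in each library of experiment 1 (vertical axes, starting at 0), depleted GDL at left and untreated GDL at right; points are libraries, horizontal lines are group means and brackets are 1 SD. Depleted replicate 1, the leftmost point of each panel, lies above depleted replicates 2 and 3 for Rag1 (42.8), Myb (789) and Cd24a (7262).

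Myb had 789, 382 and 564 normalized counts in depleted libraries of experiment 1, against 995, 891 and 983 in untreated libraries. Sox4 had 356, 364 and 401 in depleted and 480.1, 477 and 456 in untreated libraries, and Spib 3782, 3889.5 and 3986 in depleted and 4462, 4210.1 and 4366 in untreated libraries. These were the 3 genes of the list whose groups did not overlap, all lower in depleted libraries, as were 7.88% of tested genes. Their log2 changes were -0.79 ± 0.21 for Myb (adjusted p = 0.443), -0.33 ± 0.10 for Sox4 (adjusted p = 0.502) and -0.16 ± 0.09 for Spib (adjusted p = 0.605). Cd24a had 7262, 4584 and 4989 in depleted and 7478, 6292 and 7335 in untreated libraries, a log2 change of -0.35 ± 0.16 (adjusted p = 0.576) with overlap from depleted replicate 1. Vpreb3, Il7r, Cd93 and Ly6d overlapped between groups, with log2 changes of -0.02, -0.43, -0.08 and 0.04. The median of the 9 tested genes was -0.33, against -0.01 for all tested genes. Without depleted replicate 1 the values were -1.83 for Rag1 (adjusted p = 0.00338), -1.04 for Myb (adjusted p = 5.08e-05) and -0.55 for Cd24a (adjusted p = 0.000586), and 1092 genes were called. The sex-linked transcripts of that library are given above.

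In culture, Sox4, Cd24a and Myb fell in immature B cells kept with gamma delta T cells, against cells kept alone. Sox4 had 188, 191 and 211 normalized counts with gamma delta T cells and 293, 375 and 328 alone, a log2 change of -0.75 ± 0.14 (adjusted p = 0.0158). Cd24a had 5742, 6504 and 4219 with gamma delta T cells and 8790, 10365 and 9006 alone, a log2 change of -0.79 ± 0.16 (adjusted p = 0.0233). Myb had 882, 1003 and 821 with gamma delta T cells and 1282, 1386 and 1198 alone, a log2 change of -0.52 ± 0.12 (adjusted p = 0.0494). In each of these genes every library with gamma delta T cells lay below every library of cells kept alone. They are 3 of the 9 genes other than Rag2, where 1.06% of 12386 tested genes fell and 1.1% rose.

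Rag2 and Vpreb3 were also without overlap, lower with gamma delta T cells, as were 10.4% of tested genes, but did not pass. Rag2 had 9.72, 9.62 and 5.26 normalized counts with gamma delta T cells and 29.9, 15.1 and 19.9 alone, on 6 to 32 reads per library (log2 -1.29 ± 0.44, adjusted p = 0.192). It passed the filter there only through the cells kept alone. Vpreb3 had 309, 357 and 289 with gamma delta T cells and 424, 445 and 407 alone (-0.42 ± 0.13, adjusted p = 0.138). Rag1 had 68.0, 85.9 and 49.1 with gamma delta T cells and 101.9, 101.3 and 77.2 alone, with overlap at 85.9 and 77.2 (-0.48 ± 0.23, adjusted p = 0.411). Spib, Il7r, Ly6d and Cd93 overlapped too, with log2 changes of -0.27, -0.18, -0.15 and -0.01. For Cd93, at 1106 to 1284 with gamma delta T cells and 1079 to 1425 alone, the 95% interval of the difference was -0.29 to 0.28. The median of the 9 genes other than Rag2 was -0.42, against -0.00 for all tested genes.

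**Figure D4:**
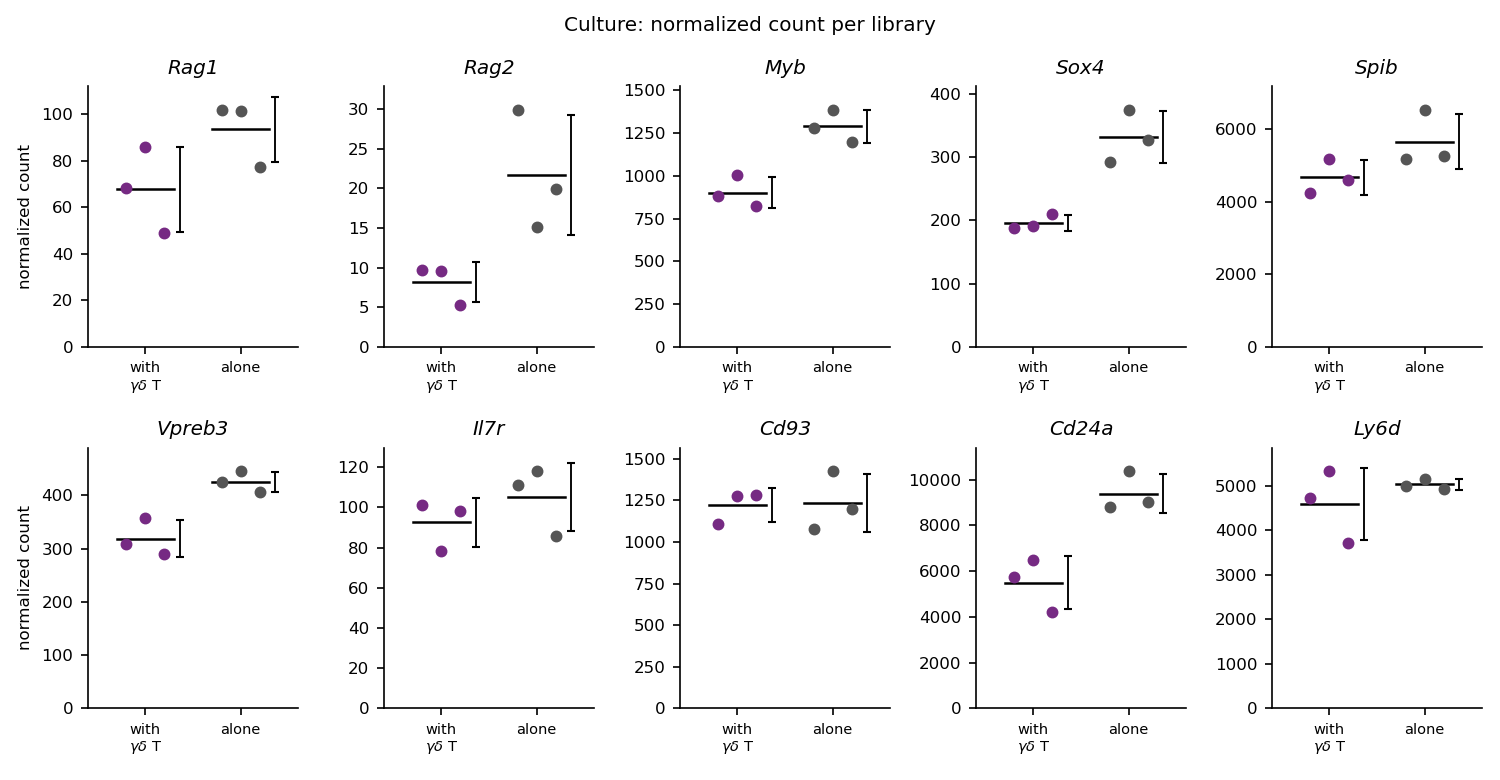
Normalized counts of the 10 genes in each culture library (vertical axes, starting at 0), cells kept with gamma delta T cells at left and cells kept alone at right; points are libraries, horizontal lines are group means and brackets are 1 SD. The groups do not overlap for Rag2, Myb, Sox4, Vpreb3 and Cd24a, each lower with gamma delta T cells.

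Leaving out 1 library at a time left 0 to 3 of the 10 genes called, with 0 called without replicate 2 or without replicate 3 of the cells kept alone, and the log2 change of Myb stayed negative each time while its adjusted p reached 0.228. Without replicate 3 of both groups, the libraries with male transcripts, an alternative chosen after seeing the data, Sox4 (log2 -0.80, adjusted p = 0.00488), Cd24a (-0.64, adjusted p = 0.00263) and Myb (-0.50, adjusted p = 0.0109) passed, and 577 genes were called in place of 267. The summed T cell marker count was 1104 to 1475 with gamma delta T cells and 870 to 975 alone. Of the 14 T cell markers tested, 1 rose and 7 had a negative log2 change, with a median of 0.04. The part of T cell transcripts in these differences was not tested.

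**Figure D5:**
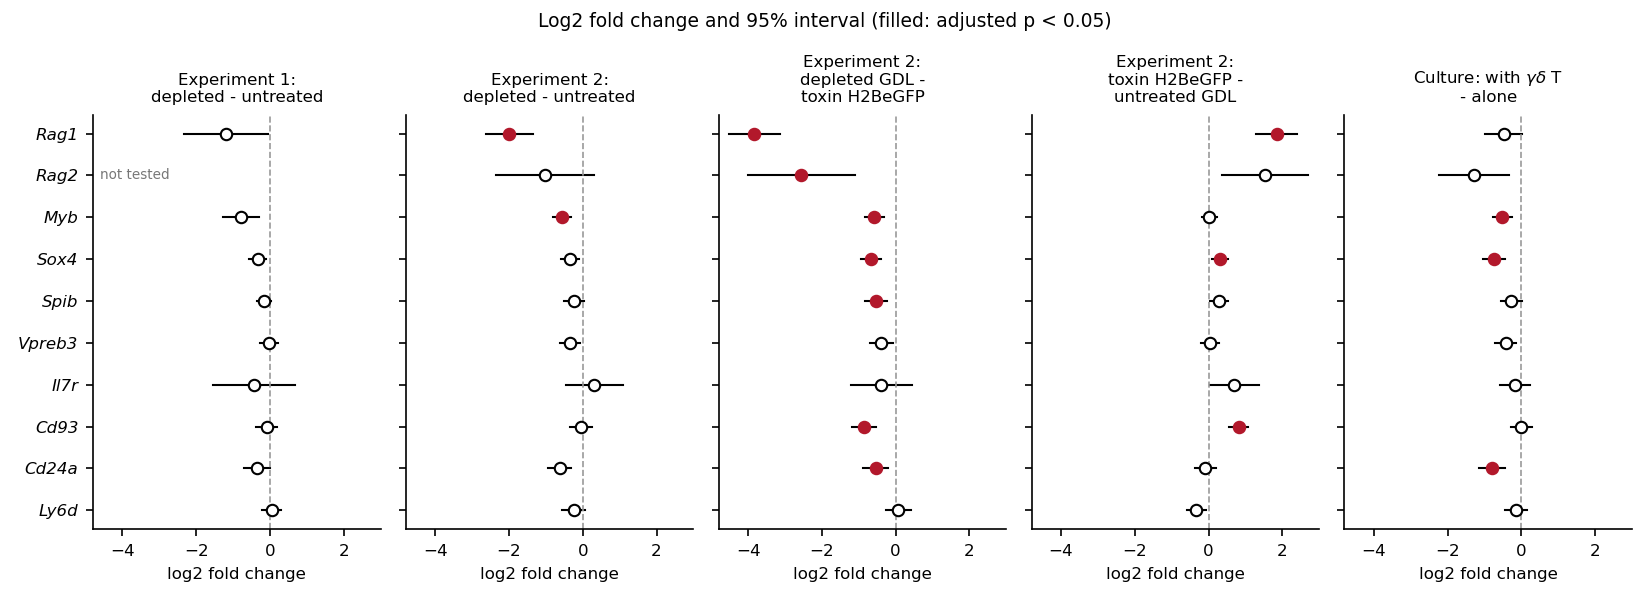
Log2 fold change (horizontal axes, on the log2(value + 1) scale) of the 10 genes in the 5 comparisons, each named above its panel as the first group minus the second; bars are 95% intervals and filled points had an adjusted p under 0.05. Rag1 spans -3.84 for depleted against toxin-treated H2BeGFP cells to 1.84 for toxin-treated H2BeGFP against untreated cells, and no point is filled for experiment 1. Rag2 is filled for depleted against toxin-treated H2BeGFP cells. It passed the filter on low values there only through the toxin-treated group, so that point is a description.

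None of the genes that join the DNA ends cut by the recombinase passed by limma. Of the V(D)J joining and end joining genes (13 tested in experiment 1 and culture, 14 in experiment 2), limma called 0 in each of the 5 comparisons, edgeR called 0, and DESeq2 called 1 for depleted against toxin-treated H2BeGFP cells. At an unadjusted p under 0.05 there were 1 in experiment 1, 3, 4 and 0 in the comparisons of depleted with untreated, depleted with toxin-treated H2BeGFP, and toxin-treated H2BeGFP with untreated cells, and 1 in culture, where 8.83%, 9.79%, 26.9%, 31.8% and 12.6% of all tested genes were, in the same order. Beside the Rag pair on chromosome 2, Traf6, an adaptor of the NF-kB pathway, passed for toxin-treated H2BeGFP against untreated cells (1376 ± 30.3, n = 3, against 1080.4 ± 69.0, n = 5; log2 0.35 ± 0.08, adjusted p = 0.0133) and in no other comparison. Iftap, listed as B230118H07Rik and overlapping the pair, passed in none of the 4 comparisons in which it was tested, at a mean of 6.82 normalized counts in depleted, 8.72 in toxin-treated H2BeGFP and 14.1 in untreated libraries of experiment 2.

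Of 19 tested regulators of the Rag genes and of early B cells, 7 fell in depleted against toxin-treated H2BeGFP cells, where 4.49% of all tested genes fell, and 10 rose in toxin-treated H2BeGFP against untreated cells, where 7.32% rose. In the same comparisons 3 of 14 T cell markers fell and 7 of 14 rose, and their part in these counts was not tested. Depleted against toxin-treated H2BeGFP cells gave log2 changes of -0.49 for Nfkb1, a subunit of NF-kB (adjusted p = 0.0204), -0.60 for Bach2, a repressor of plasma cell fate (adjusted p = 0.0230), -0.51 for Foxp1, a forkhead factor needed for early B cell development (adjusted p = 0.0246), and -0.42 for Ebf1, a determinant of the B lineage (adjusted p = 0.0348). Toxin-treated H2BeGFP against untreated cells gave 0.52 for Ebf1 (adjusted p = 0.00460), 0.44 for Ikzf1, which encodes Ikaros (adjusted p = 0.00593), 0.44 for Nfkb1 (adjusted p = 0.00801) and 0.52 for Bach2 (adjusted p = 0.0110). The median changes of the list were -0.32 and 0.30. For depleted against untreated cells 0 of 19 passed in experiment 2 (2 at an unadjusted p under 0.05, and 0 by edgeR and DESeq2), and likewise 0 in experiment 1 (1 at an unadjusted p under 0.05, and 0 by edgeR and DESeq2). In culture 1 of 19 rose, Rel, an NF-kB subunit (log2 0.50, adjusted p = 0.0488).

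Of 12 pro-B and pre-B genes, which belong to earlier bone marrow stages, 5 passed the filter in experiment 2, and 4 in each other table. Il2ra, which encodes the CD25 marker of pre-B cells and is also a gene of activated T cells, fell in depleted against toxin-treated H2BeGFP cells (log2 -1.92, adjusted p = 0.000644) and rose in toxin-treated H2BeGFP against untreated cells (log2 0.88, adjusted p = 0.0106). Akap12, a kinase scaffold, fell in the first of these (log2 -1.27, adjusted p = 0.0251), and Lef1, a factor of pro-B and T cells, rose in the second (0.36, adjusted p = 0.0281). These groups differ in their T cell sums, as given above. Medians of the list were -0.61 in experiment 1, -0.53 for depleted against untreated cells in experiment 2 and -0.29 in culture, with 0 called in each by limma, 0 by edgeR and 1, 1 and 0 by DESeq2 (2, 2 and 1 at an unadjusted p under 0.05).

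Of a list of genes of interleukin-7 receptor signalling, which includes the receptor chains Il2rg and Crlf2, 15 were tested in experiment 2 and in culture. Il7r itself passed in no comparison, and whether the changes of these genes followed from this receptor was not tested. In depleted against untreated cells Pim1, a kinase gene induced by STAT5, fell (log2 -0.69, adjusted p = 0.0353) and Bcl2, a survival gene that also increases as B cells mature, rose (log2 0.60, adjusted p = 0.0392). Against toxin-treated H2BeGFP cells Pim1 fell (log2 -0.65, adjusted p = 0.0149) and Socs1, a feedback inhibitor of cytokine signalling, (log2 -0.80, adjusted p = 0.0210), while Bcl2 (0.45) and Crlf2 (0.45), a cytokine receptor subunit that pairs with the IL-7 receptor alpha chain, rose. In culture with gamma delta T cells Socs1 rose (log2 1.70, adjusted p = 4.68e-05) and Bcl2 fell (log2 -0.62, adjusted p = 0.0312). Jak1, a kinase of the receptor, rose in toxin-treated H2BeGFP against untreated cells (0.37, adjusted p = 0.0115). In experiment 1 none of 13 passed (limma, edgeR and DESeq2, with 0 at an unadjusted p under 0.05). With the share of all tested genes in brackets, 1 rose (0.127%) and 1 fell (0.172%) in depleted against untreated cells. Against toxin-treated H2BeGFP cells 2 rose (4.58%) and 2 fell (4.49%), and in culture 1 rose (1.1%) and 1 fell (1.06%). The medians of the list were 0.02, -0.14 and 0.09 in these comparisons. For toxin-treated H2BeGFP against untreated cells 1 rose (7.32%), with a median of 0.14.

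Among relatives and partners of the 10 genes, Sox5, a SOX factor of the SoxD group, fell in depleted against toxin-treated H2BeGFP cells (log2 -1.57, adjusted p = 0.00406) and rose in toxin-treated H2BeGFP against untreated cells (log2 1.26, adjusted p = 0.00371). Spic, an ETS factor close to Spib, rose in depleted against toxin-treated H2BeGFP cells (1.48, adjusted p = 0.0397). Of later transitional and mature B cell genes (14 tested), Ighd, the delta heavy chain of mature IgD, rose in depleted against untreated cells (0.78, adjusted p = 0.0209) and against toxin-treated H2BeGFP cells (0.77, adjusted p = 0.00676). In the first of these Gpr183, an oxysterol receptor that guides B cell migration, fell (log2 -0.64, adjusted p = 0.0209). Over the list 2 rose and 1 fell there, where 0.127% and 0.172% of all tested genes did. The median was -0.05, with 9 of 14 changes negative. Against toxin-treated H2BeGFP cells 3 rose and 0 fell, where 4.58% and 4.49% did, with a median of 0.01. Toxin-treated H2BeGFP against untreated cells gave 3 lower, Gpr183, Ccr7 and Cd38, where 8.34% of all tested genes fell, with a median of -0.09. In culture 2 rose, Gpr183 (1.59) and Fcer2a, which encodes CD23 (1.56, adjusted p = 2.03e-05), and those that fell included Ccr7, a chemokine receptor gene (-0.78, adjusted p = 0.00439), Itgb7, an integrin gene (-0.86, adjusted p = 0.0306), and Bcl2. The list had 4 lower there, where 1.06% of all tested genes fell and 1.1% rose, and a median of -0.33.

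Some cycling cell genes fell in the depleted cells of experiment 2. Mki67, which encodes the Ki-67 antigen, had 62.2 ± 27.5 normalized counts in depleted libraries (SD, n = 2), 297 ± 80.0 in toxin-treated H2BeGFP libraries (n = 3) and 177 ± 40.5 in untreated libraries (n = 5). It fell in depleted against untreated cells (log2 -1.53, adjusted p = 0.0288) and against toxin-treated H2BeGFP cells (log2 -2.27, adjusted p = 0.000693). Of the 14 genes of the list, 1 and 5 fell in these comparisons, where 0.172% and 4.49% of all tested genes fell, with medians of -0.64 and -0.99. In toxin-treated H2BeGFP against untreated cells Top2a (0.94) and Mki67 (0.74) rose and Pcna (-0.31) fell. In experiment 1 the median was -0.65 and 0 passed (4 at an unadjusted p under 0.05, and 0 by edgeR and DESeq2), and in culture it was -0.21 with 0 passing (4 at an unadjusted p under 0.05, and 0 by edgeR and DESeq2).

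Genes with the most similar pattern to each of the 10 were taken over the 10 libraries of experiment 2, by Pearson's r of log2(value + 1) among tested genes with a mean of at least 50. These libraries share group differences and differ in T cell transcripts, so r is a description. Rag2 could not be listed as a near gene, since its mean lay below 50. Of the 10, no other gene was among the 3 nearest of another. Spib was closest to Pyhin1 (r = 0.986, and 0.910 over the 6 libraries of experiment 1) and Themis2 (0.974, and 0.876). Cd93 was closest to Slamf7 and Prex1 (r = 0.963 each, and 0.693 and 0.858 in experiment 1), Myb to Dcaf12 (0.947, and 0.904), and Cd24a to Cfp (0.953, and 0.827). For Rag1 the nearest were Vangl2 (0.971), Zfp27 (0.964) and Il2ra (0.955), whose r in experiment 1 was -0.45, 0.01 and 0.41. Il7r was closest to Irs1 (0.966, and -0.34), and Sox4 to 5031414D18Rik (0.936, and -0.18).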

How the data were processed

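Per the labels' protocols, total RNA went through an RNeasy Plus Micro kit, and a stranded SMART-Seq kit for total RNA gave the libraries. Per the submitters' processing notes, bcl2fastq, STAR 2.5.2b and the mm10 genome were used; the read counter, its use of strand and the annotation are not stated there. The authors deposited 3 gene tables holding a signal that the labels call normalized counts; each table was compared only within itself. Dividing by the smallest step of a library gave whole reads for 100% of values (tolerance 0.01), and from these the depths. Main test: limma 3.58.1 (R 4.3.3; lmFit, eBayes with trend) on log2(value + 1), genes with a mean of at least 10, Benjamini-Hochberg adjustment over all tested genes (11701, 13364 and 12386), adjusted p under 0.05; the 3 groups of experiment 2 were fitted together. On recovered reads, edgeR 4.0.16 called 0, 51, 1189, 2101 and 237 genes and DESeq2 1.42.0 called 31, 137, 1754, 2615 and 399, against 0, 40, 1212, 2093 and 267 by limma, in experiment 1, depleted against untreated, depleted against toxin-treated H2BeGFP and toxin-treated H2BeGFP against untreated cells of experiment 2, and culture. The limma fit with its main settings was tested on simulated counts, and the alternative fits were not. Gene coordinates and exon lengths are from GENCODE M21, which held 98.9%, 98.8% and 98.8% of identifiers. Gene symbols are those deposited by the authors, apart from Iftap, a RefSeq name. The 10 genes and all lists were chosen with earlier results of these data known. All 10 were named in every comparison, and from each pathway list up to 4 passing genes, those of smallest p. Alternatives were another pseudocount, filters, TMM scaling, quantile normalization, both count tests, 2 groups in a fit, the T cell level as a term, a replicate block and leaving out each library; leaving out replicate 3 of both culture groups was added after seeing the data. Counting error is large for Rag1 and Rag2 in experiment 1. Some results of the lists are not reported here.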

Additional observations from a re-analysis of the deposited data

How the results depend on the processing

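Of the 10 genes, leaving out 1 library at a time left 0 to 3 called in experiment 1, 0 to 5 for depleted against untreated cells, 1 to 7 for depleted against toxin-treated H2BeGFP cells and 2 to 6 for toxin-treated H2BeGFP against untreated cells in experiment 2, and 0 to 3 in culture, against 0, 2, 7, 3 and 3. Counts for the comparisons with toxin-treated H2BeGFP cells include Rag2 wherever it passed. With no filter on low values, 1 was called for depleted against untreated and 4 for depleted against toxin-treated H2BeGFP cells. With 2 groups in the fit, 0, 4 and 5 were called in the 3 comparisons of experiment 2 in that order, Rag1 being at an adjusted p of 0.0703 in the first. With the T cell level as a term, 2 were called for depleted against toxin-treated H2BeGFP and 0 for toxin-treated H2BeGFP against untreated cells. In culture, TMM scaling, quantile normalization and edgeR each called 2, with Myb at adjusted p of 0.0558, 0.0553 and 0.0617. The replicate numbers were not taken to pair the libraries, since not every same-numbered pair correlated at over 0.1: deviations of same-numbered libraries correlated at -0.04 to 0.05 (experiment 1), -0.11 to -0.07 (experiment 2) and -0.04 to 0.23 (culture, where 2 of 3 pairs were over 0.1 and both replicates 3 had male transcripts). This cut-off is not a test of pairing, and whether the cultures were paired cannot be told from it. A replicate block gave 0 called in experiment 1, 2 for depleted against untreated cells of experiment 2 (Rag1 and Cd24a, with Myb at an adjusted p of 0.187) and 3 in culture, and 0, 153 and 448 genes called over the whole table. Signs turned round only for genes that had not passed. They did so with the T cell level as a term for Il7r (0.0768) and Ly6d (-0.0371) in experiment 1, for Il7r (0.54) and Ly6d (-0.10) in depleted against toxin-treated H2BeGFP cells, and for Myb (-0.0128), Il7r (-0.22) and Vpreb3 (-0.0059) in toxin-treated H2BeGFP against untreated cells. They did so with quantile normalization for Vpreb3 in experiment 1 (0.0042) and for Cd24a in toxin-treated H2BeGFP against untreated cells (0.23), and in culture for Cd93 with TMM scaling (0.0136), edgeR (0.0085) and DESeq2 (0.0073). Leaving out 1 library moved signs within -0.87 to 0.15 for Il7r, -0.102 to 0.0236 for Vpreb3, -0.167 to 0.0109 for Cd93 and -0.0722 to 0.105 for Ly6d in experiment 1. It did so within -0.138 to 0.0209 for Cd93 and -0.542 to 0.0690 for Spib in depleted against untreated cells. In toxin-treated H2BeGFP against untreated cells the ranges were -0.0329 to 0.0698 for Myb and -0.0207 to 0.120 for Vpreb3, and in culture -0.10 to 0.10 for Cd93. The cause of these changes was not tested. Of 749 alternative values of the 10 genes, 642 kept direction and side of the threshold, 61 no longer passed, 17 newly passed and 29 changed sign. Genes called over the whole table lay, over all alternatives, between 0 and 1092 in experiment 1, between 103 and 678 in culture, and between 0 and 579, 42 and 2712, and 16 and 2996 in the comparisons of experiment 2.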
